A study of Rattus norvegicus with 6 samples.

Results

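Complete dairy protein was set against casein in the gastrocnemius, the large calf muscle, of obese rats. The arrays were all those whose titles name muscle with the dairy or the casein diet: 4 of the 6 arrays of the series, 2 per diet, with 14506 named genes on each. Both diets were given to male Sprague-Dawley rats with diet-induced obesity, from 12 weeks of age, for 8 weeks with free access, and tissue was collected at 20 weeks. Both were high in fat and sucrose, supplied 4.6 kcal/g and drew 10% of energy from protein. That protein was casein alone in the control diet, and skim milk powder, which brings whey proteins along with casein, in the dairy diet. The remaining 2 arrays come from the same kind of rat on a diet with 7.1% of energy from casein and 2.9% from free leucine. They entered the estimate of spread, and their values are given for reference only. The design text counts 4 rats per diet. Nothing in the labels says whether an array is 1 rat or a pool, so p-values measure only the spread between these arrays, which may be technical.

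Skim milk protein is a mixture of casein, which clots in the stomach and releases amino acids slowly, and whey proteins, which are digested fast and are rich in leucine and other branched-chain amino acids. Leucine activates mTORC1, the kinase complex that drives protein synthesis in muscle, and muscle is a main site where branched-chain amino acids are broken down. Skim milk also brings calcium and lactose. Gastrocnemius in the rat is made mostly of fast fibres, which rely on glycolysis and on rapid calcium release, with slow, oxidative fibres in its deep portion.

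Values are log2 signals, so a difference of 1 is a 2-fold difference. They ran from 1.14 to 13.7, and the median over transcript clusters lay between 3.46 and 3.56 on each array. The labelled tissue was checked on 16 fast-fibre transcripts, which mark fast skeletal muscle and had a median level of 12.5. This check cannot tell gastrocnemius from another fast muscle. Casein array 2 stood apart: its mean correlation with the other arrays was 0.974, against 0.985 to 0.988 for the rest. Relative to casein array 1 it had 405 genes over 2-fold higher and 198 over 2-fold lower, while 163 genes differed over 2-fold between the dairy arrays. Lists and leading genes are therefore also given against casein array 1 alone. In addition, 2450 genes carried an identical value on both dairy arrays and 1647 on both casein arrays, which makes their spread look like 0.

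No gene passed the test. Against both casein arrays 0 of 14506 genes (0.0%) had a limma adjusted p under 0.05, and the lowest adjusted p was 0.833. An unadjusted p under 0.05 was reached by 696 genes (4.8%), 361 of them higher and 335 lower with dairy. Against casein array 1 alone, a lone array assumed to vary like the others, the count was again 0 with a lowest adjusted p of 0.355, and 1485 genes (10.2%) had an unadjusted p under 0.05. What follows describes levels and their separation on these arrays, and "higher" or "lower" refers to means or arrays, not to a change that passed.

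Differences over 2-fold were few. With dairy 35 genes (0.241%) were over 2-fold higher and 101 (0.696%) over 2-fold lower, and the dairy and casein arrays did not overlap in 16 of the 35 and 69 of the 101. Against casein array 1 alone 37 genes (0.255%) were over 2-fold higher and 21 (0.145%) lower. Of the 101 lower genes, 18 were still over 2-fold lower against that array and 18 had the opposite sign. Of the 35 higher genes, 6 were still over 2-fold higher and 11 had the opposite sign. Genes over 2-fold from each casein array singly numbered 4 on the higher side and 17 on the lower.

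Both dairy arrays lay above both casein arrays in 1670 genes (11.5%) and below both in 1693 (11.7%). The difference was above 0 in 7424 genes (51.2%), and its median was 0.003. This balance hid a dependence on level. Among the 7253 genes above the median level, 5114 (70.5%) had a difference above 0, 1350 (18.6%) had both dairy arrays higher and 349 (4.81%) had both lower. Higher genes thus made up 79.5% of the bright genes whose arrays did not overlap, and 49.7% over all genes. After quantile normalization, which forces the same distribution on every array, the shares were 38.7% for bright genes, with 690 higher and 1091 lower, and 60.0% for all genes, with 2855 higher and 1905 lower. The bright genes then lay apart on the higher side in 9.51% and on the lower in 15.0%, against 19.7% and 13.1% of all genes. The median of the bright genes was 0.10 as deposited and 0.01 after it, and 0.06 as deposited against casein array 1. Most gene lists below consist of bright muscle genes, so each is read against these bright-gene shares, and a list median near 0.10 is no more than theirs. Against casein array 1 alone the difference was above 0 in 6953 genes (47.9%), both dairy arrays lay above that array in 4115 (28.4%) and below it in 3868 (26.7%). For bright genes the corresponding shares were 62.6%, 38.5% and 19.3%. Both dairy arrays lay above all 4 other arrays in 581 genes (4.01%) and below them in 511 (3.52%).

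**Figure D1:**
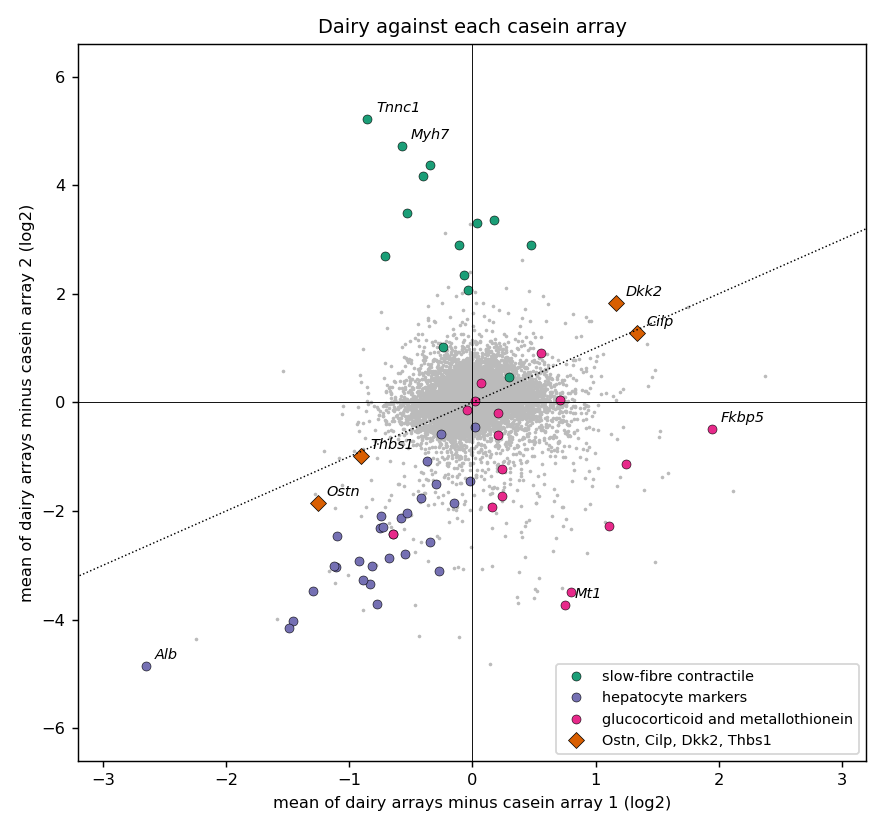
Each grey point is 1 of 14506 genes, with the mean of the dairy arrays minus casein array 1 on the x axis and minus casein array 2 on the y axis, both in log2 units; the dotted line marks equal values, and the axes have different scales. Cilp and Dkk2 were more than 1 above, and Ostn more than 1 below, each casein array, while slow-fibre genes lie far above 0 on the y axis only and glucocorticoid genes such as Fkbp5 lie on opposite sides of the axes.

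Among genes above the median level whose arrays did not overlap, the smallest p-values on the higher side belonged to single genes of different kinds. Emcn, the endothelial sialomucin endomucin, read 5.48 and 5.51 on the casein arrays and 6.08 and 6.09 on the dairy arrays, a difference of 0.59 ± 0.06 (SE, n = 2 arrays each). The leucine arrays, at 5.73 and 5.75, lay between. Ache, the acetylcholinesterase that ends transmission at the neuromuscular junction, stood at 6.71 on both casein arrays and at 7.25 and 7.27 with dairy, 0.55 ± 0.06 higher. Its leucine arrays, at 6.71 and 6.66, lay with casein. Adamtsl4, a secreted protein that binds fibrillin in microfibrils, had 5.97 and 5.95 with casein against 6.61 and 6.52 with dairy (0.61 ± 0.07). The leucine arrays of Adamtsl4 read 5.99 and 6.10, again near casein.

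Slc6a8, the creatine transporter that supplies muscle with its phosphate buffer, read 7.31 on both casein arrays and 7.74 and 7.79 with dairy, a difference of 0.45 ± 0.06. Asrgl1, an enzyme that cleaves asparagine and isoaspartyl bonds, read 5.03 and 5.15 with casein and 5.93 and 5.76 with dairy, 0.76 ± 0.09 higher. In both genes the leucine arrays were higher still, at 7.98 and 7.93 for Slc6a8 and at 6.10 and 6.09 for Asrgl1. Prkx, a cyclic AMP-regulated kinase, showed the same order, with 4.26 and 4.10 on casein, 4.84 on both dairy arrays and 4.94 and 4.95 on leucine. The other genes chosen for a small p were Trip4 (0.49), S100pbp (0.48), Ppfibp2 (0.39) and Fundc2 (0.41), in log2 units. All 10 genes had separate arrays by the rule that chose them, and all 10 were still separate after quantile normalization. In 5 of the 10, the dairy arrays also lay above both leucine arrays.

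Among genes above the median level, those with the widest gap between arrays had larger differences and a wider spread. Cilp, cartilage intermediate layer protein, a matrix protein that binds TGF-beta and IGF1, read 4.82 and 4.88 with casein and 6.05 and 6.27 with dairy, a difference of 1.31 ± 0.26 or 2.48-fold. Its leucine arrays, at 3.95 and 4.68, were the lowest of the 6. Dkk2, a secreted modulator of Wnt signalling, read 4.12 and 3.46 with casein and 4.97 and 5.61 with dairy, 1.50 ± 0.32 higher, beside 3.64 and 3.46 with leucine. Both genes kept the gap against casein array 1 alone, at 1.34 for Cilp and 1.17 for Dkk2. Aqp4, the water channel of the fast-fibre surface membrane, read 7.90 and 7.09 with casein and 8.90 and 8.52 with dairy (1.22 ± 0.32), or 0.81 against casein array 1. The remaining genes of this kind were Klhl38 (1.21), Spetex2el3 (1.25) and Ap1s2 (0.93), a subunit of the AP-1 clathrin adaptor. In Klhl38 the 2 casein arrays were themselves 6.66 and 5.47, and the difference from the first was 0.61.

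Among lower genes above the median level and outside the plasma proteins of liver, the widest gap was in Ostn, which encodes musclin, a peptide that muscle secretes and that competes for the clearance receptor of natriuretic peptides. Ostn read 9.52 and 10.12 with casein and 8.33 and 8.20 with dairy, a difference of −1.56 ± 0.28 or 2.94-fold lower, and −1.26 against casein array 1. With leucine it read 9.69 and 10.23, so both dairy arrays lay below the other 4. Akr1b10, an aldo-keto reductase, read 6.99 and 6.78 with casein and 6.29 and 5.95 with dairy (−0.76 ± 0.15), while the leucine arrays were highest at 7.34 and 7.42. Thbs1, thrombospondin-1, a matrix glycoprotein that activates latent TGF-beta and restrains vessel growth, read 6.10 and 6.19 with casein and 5.07 and 5.32 with dairy. Its difference was −0.95 ± 0.18, and the leucine arrays were lower still at 4.62 and 4.20.

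Gpr137c, an orphan receptor-like membrane protein, read 6.41 and 6.26 with casein and 5.67 and 5.73 with dairy (−0.63 ± 0.08), beside 5.52 and 5.60 with leucine. The other lower genes with a small p were Rtn4rl2 (−0.47), Cldn23 (−0.44), Msl3l2 (−0.47), Dlk2 (−0.36), Prr18 (−0.42) and Nxnl1 (−0.45). All 10 lower genes had separate arrays by the rule and after quantile normalization, and in 2 of them, Ostn and Akr1b10, both dairy arrays were below the leucine arrays too. Mybph and Chad were over 2-fold lower against each casein array and were picked after their values were seen. Mybph, a myosin-binding protein of the thick filament, read 9.26 and 9.72 with casein and 7.51 and 8.90 with dairy. Chad, the matrix protein chondroadherin, read 6.99 and 7.41 against 4.68 and 6.75. In both genes the dairy arrays were further apart than the casein arrays.

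**Figure D2:**
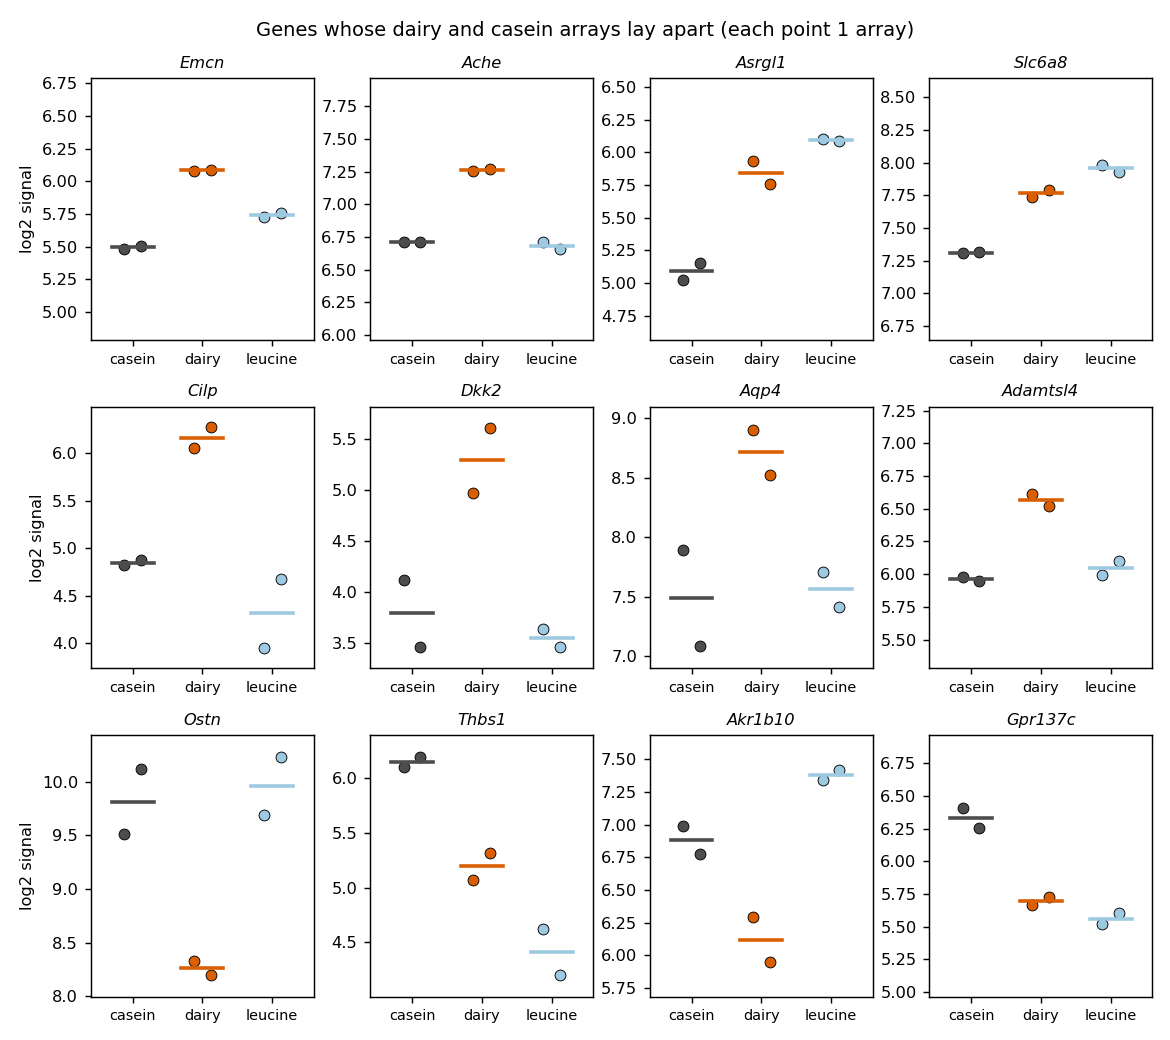
Each panel shows 1 gene, with each array as a point, the mean of each diet as a bar, diets on the x axis and log2 signal on the y axis; y axes start at different values. Dairy and casein points do not overlap in any panel by the choice of genes, and the leucine points lie near casein for Ache, Adamtsl4 and Ostn but beyond dairy for Slc6a8, Asrgl1, Thbs1 and Gpr137c.

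Genes of the neuromuscular junction were followed because Ache was among the bright genes chosen for a small p. Nuclei beneath the synapse transcribe receptor subunits and junction enzymes through Ets-family factors, of which Etv5 is 1, that bind the N-box, while E-boxes bind myogenic factors. The promoters of 2 acetylcholine receptor subunit genes, from RefSeq on GRCr8, are shown because each holds the N-box letters CCGGAA, searched on both strands and printed in capitals. They run 5′ to 3′ on the gene's own strand, from 250 bases before to 50 after the annotated start, so 300 bases each. Chrne lies on the minus strand at chr10:55834105-55834404 and its N-box begins at position −54 from the start. Chrnd lies on the plus strand at chr9:95310066-95310365 and its N-box reads on the opposite strand, beginning at −115.
Chrne promoter: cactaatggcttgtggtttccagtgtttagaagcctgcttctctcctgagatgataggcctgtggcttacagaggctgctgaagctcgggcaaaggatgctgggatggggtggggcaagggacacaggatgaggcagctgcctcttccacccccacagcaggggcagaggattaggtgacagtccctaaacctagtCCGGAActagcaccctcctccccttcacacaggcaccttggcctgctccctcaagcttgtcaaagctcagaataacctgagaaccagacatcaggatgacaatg
Chrnd promoter: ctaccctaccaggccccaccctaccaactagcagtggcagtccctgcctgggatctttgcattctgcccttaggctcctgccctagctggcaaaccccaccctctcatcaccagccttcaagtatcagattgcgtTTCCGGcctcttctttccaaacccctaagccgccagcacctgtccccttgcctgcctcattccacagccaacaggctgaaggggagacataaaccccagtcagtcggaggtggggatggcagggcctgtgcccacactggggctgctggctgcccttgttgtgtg
The N-box letters occur in 5004 of 33469 rat promoters of this length (15.0%), and in 2 of the 13 junction genes that had a promoter entry out of 17 measured. The E-box letters CANNTG occur in 72.1% of all promoters and in 11 of the 13. A match describes letters only.

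Both dairy arrays lay above both casein arrays in 7 of the 17 measured junction genes (41.2%, against 11.5% of all genes and 18.6% of bright genes), and below in 0 of them. Ache, which prompted the list, is 1 of the 7, and without it the count was 6 of 16 (37.5%). The list median was 0.24, and 0.22 against casein array 1. After quantile normalization 4 of the 17 (23.5%), Ache, Chrne, Etv5 and Agrn, were separate on the higher side, against 19.7% of all and 9.51% of bright genes, and 1, Musk, on the lower. The median was then 0.20. In 5 of the 17, the dairy arrays lay above both casein and both leucine arrays. These were Ache, which prompted the list, Agrn, Chrne, Etv5 and Rapsn. The share over all genes was 4.01%, and none was taken for bright genes. In whole muscle, more cells or nuclei of a kind and more RNA per cell cannot be told apart, here or in any list that follows.

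Chrne, the epsilon subunit of the adult acetylcholine receptor, read 4.08 and 4.42 with casein and 4.74 and 5.41 with dairy, a difference of 0.82 ± 0.38. Its leucine arrays read 3.63 and 4.43. Etv5 read 3.78 on both casein arrays and 4.39 and 4.01 with dairy (0.41 ± 0.14), and Agrn, which encodes the nerve- and muscle-derived organiser agrin, read 4.70 and 4.65 against 4.92 on both dairy arrays. These 3 genes have low signals, near the median gene. Ncam1, an adhesion molecule of the junction and of satellite cells, read 4.99 and 5.56 with casein and 5.60 and 6.48 with dairy, so its arrays nearly touched. Chrnd, the delta subunit, overlapped, with 4.32 and 3.37 against 4.04 and 4.64. Musk, the receptor kinase through which agrin acts, was on the other side at −0.47 ± 0.24, reading 4.30 and 4.92 against 3.97 and 4.30. The junction genes therefore did not all lie on 1 side. Schwann cell and nerve markers were measured beside them: 4 of 11 were above 0, 0 lay apart on the higher side and 2 on the lower (18.2%, against 11.7% of all genes). Their median was −0.08, and 0.03 against casein array 1. Their part in the junction result was not tested.

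Calcium release and storage, which couples the membrane signal to contraction, leaned higher in most members by small amounts. Of 27 genes 26 were above 0, 7 had separate arrays on the higher side (25.9%) and 0 on the lower, against 70.5%, 18.6% and 4.81% of bright genes. The median was 0.21, and 0.18 against casein array 1, where both dairy arrays lay above that array in 15 genes (55.6%, against 38.5%). After quantile normalization the median was 0.09, with 21 of 27 above 0 and 3 separate on the higher side (11.1%, against 9.51% of bright genes). Hrc, which binds calcium inside its store, the sarcoplasmic reticulum, read 9.72 and 9.63 with casein, 9.96 and 9.94 with dairy and 9.70 and 9.63 with leucine. Stim1, the sensor of store depletion, read 8.16 and 8.10 with casein and 8.46 and 8.29 with dairy. The release channel Ryr1 overlapped, with 11.32 and 10.94 against 11.65 and 11.13, as did Atp2a1, the fast-fibre calcium pump, with 12.91 and 12.73 against 13.08 and 12.88. Mcu, the mitochondrial calcium uniporter, stood 0.47 ± 0.22 higher against both casein arrays and 0.17 against the first.

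Ion channels and pumps of the muscle membrane had 11 of 11 genes above 0, against 70.5% of bright genes, and 2 apart on the higher side (18.2%, against 18.6%). Their median was 0.43, and 0.12 against casein array 1, where 8 of 11 were above 0 (against 62.6% of bright genes). After quantile normalization 8 of 11 were again above 0, with a median of 0.36. On that scale 3 lay apart higher (27.3%, against 9.51% of bright genes) and 1 lower (9.09%, against 15.0%). Kcnma1, the large-conductance calcium-activated potassium channel, did not depend on the choice of control array. It read 6.67 and 6.66 with casein and 7.27 and 7.11 with dairy, 0.52 ± 0.08 higher, and 7.83 and 7.78 with leucine. Atp1b1, the beta subunit of the sodium pump, read 8.19 and 6.81 with casein and 8.50 and 9.03 with dairy (1.26 ± 0.54), of which 0.57 was left against casein array 1. Scn4a, the muscle sodium channel, read 8.72 and 8.16 against 9.02 and 8.72.

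Extracellular matrix genes, most of them products of fibroblasts, had 24 of 27 members above 0 and a median of 0.23, or 0.34 against casein array 1. Both dairy arrays lay above both casein arrays in 8 genes (29.6%, against 18.6% of bright genes). In the same 8 of 27 they lay above all 4 other arrays (29.6%, against 4.01% of all genes, with no share taken for bright genes). The leucine arrays were the lowest for this list, with a median level of 5.57 and 5.72 against 6.45 and 6.48 with casein. After quantile normalization 7 of the 8 were still separate and the median was 0.12. Col3a1, type III collagen, read 7.20 and 7.11 with casein and 8.12 and 7.67 with dairy, 0.74 ± 0.17 higher, and 6.49 and 6.41 with leucine. Loxl1, an oxidase that cross-links elastin, read 5.07 and 4.88 against 5.54 and 5.31. Smaller differences were seen in Mmp2, a gelatinase, with 7.05 on both casein arrays against 7.52 and 7.17, and in Col5a1, with 4.72 on both against 4.87 and 4.91.

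The main fibrillar collagen differed little. Col1a1, a chain of type I collagen, read 8.97 and 8.51 with casein and 9.10 and 8.50 with dairy, a difference of 0.06 ± 0.27 that was −0.05 after quantile normalization. Dairy array 1 carried much of the matrix difference. Col14a1, a fibril-associated collagen, read 7.05 on that array and 5.55 on the other, beside 5.42 and 5.07 with casein, and Postn, the fibroblast protein periostin, read 6.67 and 5.43 beside 4.57 and 5.46. Leaving that array out brought the list median to 0.04. Macrophage and leukocyte markers, the other stromal cells that could vary with it, had 12 of 27 genes above 0 and a median of −0.004. Separate arrays were seen in 0 of them, against 11.5% of all genes on the higher side and 11.7% on the lower. After quantile normalization 3 (11.1%, against 19.7% of all genes) lay apart higher. Against casein array 1 their median was 0.19, and both dairy arrays lay above it in 19 genes (70.4%, against 28.4% of all genes). The matrix list also had 19 of 27 above that array (70.4%, against 38.5% of bright genes). The part of macrophage and leukocyte cells in the matrix result was not tested.

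**Figure D3:**
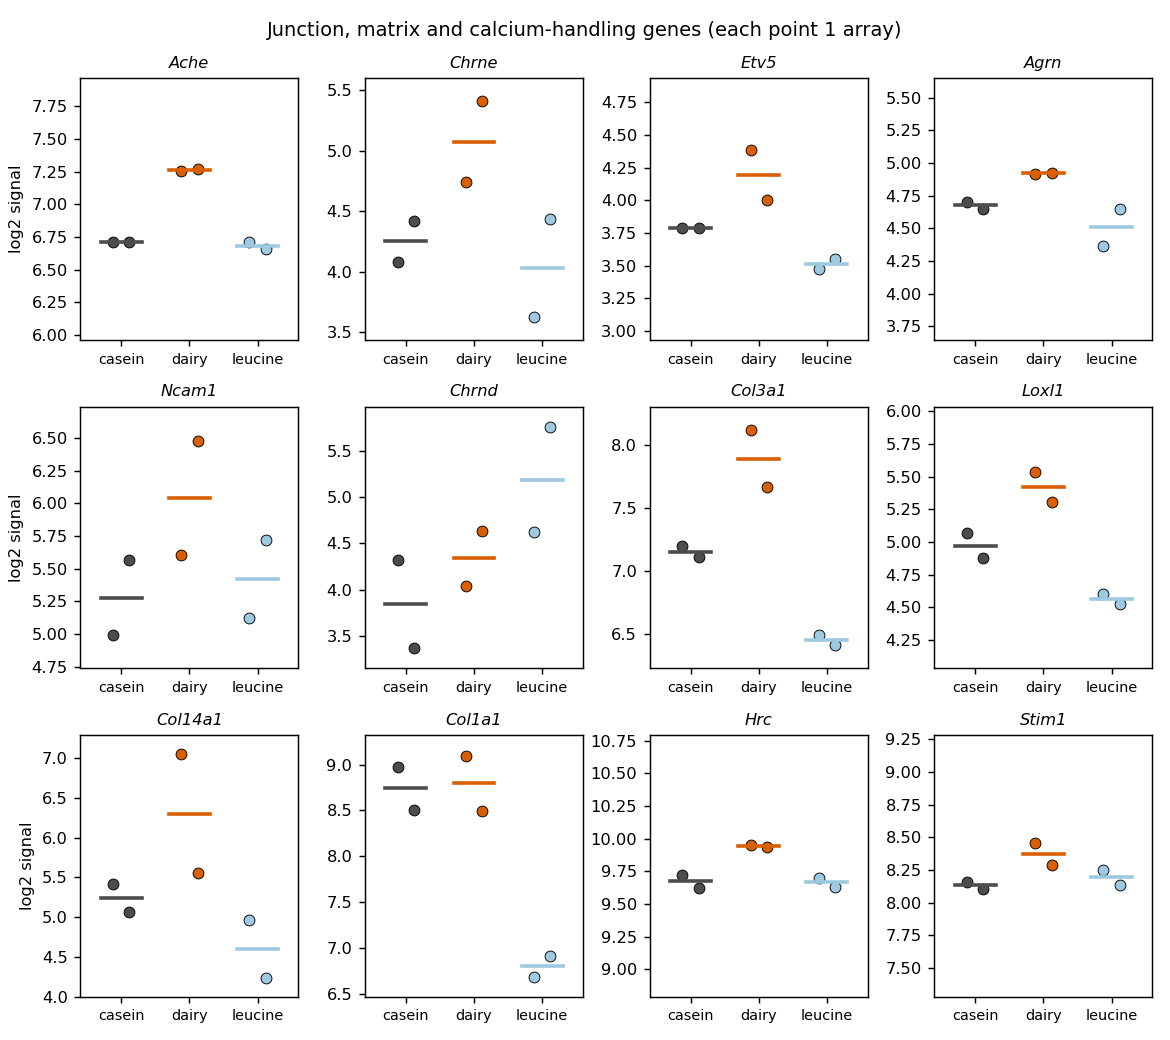
Junction, matrix and calcium-handling genes by array, with diets on the x axis, log2 signal on the y axis, a point per array and a bar at the mean of each diet; y axes start at different values. In Ache, Hrc and Agrn the 2 dairy points are close together above casein, while Col14a1 and Ncam1 show wide dairy pairs and Chrnd and Col1a1 overlap between casein and dairy.

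Slow-fibre genes showed how far 1 control array could carry a list. All 14 measured genes were higher with dairy by the means, and the list median of 1.58 was the highest of the 35 lists. Myh7, the slow myosin heavy chain, read 11.37 and 6.07 with casein, 10.92 and 10.67 with dairy and 10.92 and 10.86 with leucine. Tnnc1, slow troponin C, read 10.53 and 4.46 with casein and 9.76 and 9.60 with dairy. In both genes casein array 2 alone was low. Against casein array 1 the list median was −0.18. Both dairy arrays lay below that array in 9 genes (64.3%, against 19.3% of bright genes) and above it in 3 (21.4%, against 38.5%). The sum of the slow-fibre signals on the linear scale, as log2, was 13.7 and 10.1 on the casein arrays and 13.3 and 13.4 on the dairy arrays.

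Fast-fibre genes, at the top of the range, differed by little. Of 16 genes 14 were above 0, and their median was 0.09, against −0.03 on the quantile scale and 0.015 against casein array 1. Myh4, the fastest myosin heavy chain, read 13.04 and 12.85 against 13.17 and 12.79 (0.03 ± 0.15, or −0.10 after quantile normalization). Myh1, the IIx isoform, read 12.66 and 11.84 against 12.29 and 12.82. Myh2, the IIa isoform of oxidative fast fibres, was low on casein array 2 like the slow genes, reading 11.56 and 8.26 with casein and 11.70 and 11.40 with dairy. Against casein array 1 the differences were −0.06 for Myh4, −0.11 for Myh1 and −0.02 for Myh2.

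Oxidative metabolism, which is denser in slow fibres, also differed by control array. Of 64 genes of oxidative phosphorylation 62 were above 0 with a median of 0.21, and 14 (21.9%) had separate arrays, near the 18.6% of bright genes. The median was 0.02 against casein array 1. Both dairy arrays lay above that array in 15 genes (23.4%, against 38.5% of bright genes) and below it in 21 (32.8%, against 19.3%). Genes with separate arrays and close pairs included Cox7c of complex IV, which read 9.51 and 9.63 with casein and 9.80 and 9.92 with dairy, and Sdhd of complex II, with 8.84 and 8.86 against 9.10 and 9.23. In both, the leucine arrays were higher again, at 10.18 and 10.30 for Cox7c and at 9.51 and 9.30 for Sdhd. The tricarboxylic acid cycle had 21 of 23 genes above 0 and a median of 0.16, and 0.01 against casein array 1.

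Fatty acid uptake and oxidation had 31 of 34 genes above 0 and a median of 0.30, which was −0.13 against casein array 1, with 4 genes above that array (11.8%, against 38.5% of bright genes) and 14 below (41.2%, against 19.3%). Cpt1b, the muscle enzyme that admits fatty acids to mitochondria, read 9.40 and 8.61 with casein and 9.25 and 9.34 with dairy. Pdk4, which inhibits pyruvate dehydrogenase and so spares glucose, read 10.29 and 9.94 with casein, 10.44 and 11.26 with dairy and 11.69 and 11.40 with leucine. Its casein and dairy arrays did not overlap, and its difference was 0.74 ± 0.32. Ucp3, a mitochondrial carrier that responds to fatty acids, overlapped, with 7.90 and 8.53 against 7.88 and 8.98. Ppargc1a, the coactivator of mitochondrial biogenesis, also overlapped, with 6.20 and 6.19 against 6.12 and 6.51. Glycolysis had 25 of 28 genes above 0 and a median of 0.15, or 0.03 both after quantile normalization and against casein array 1, with Aldoa at 13.13 and 13.07 against 13.32 and 13.24.

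**Figure D4:**
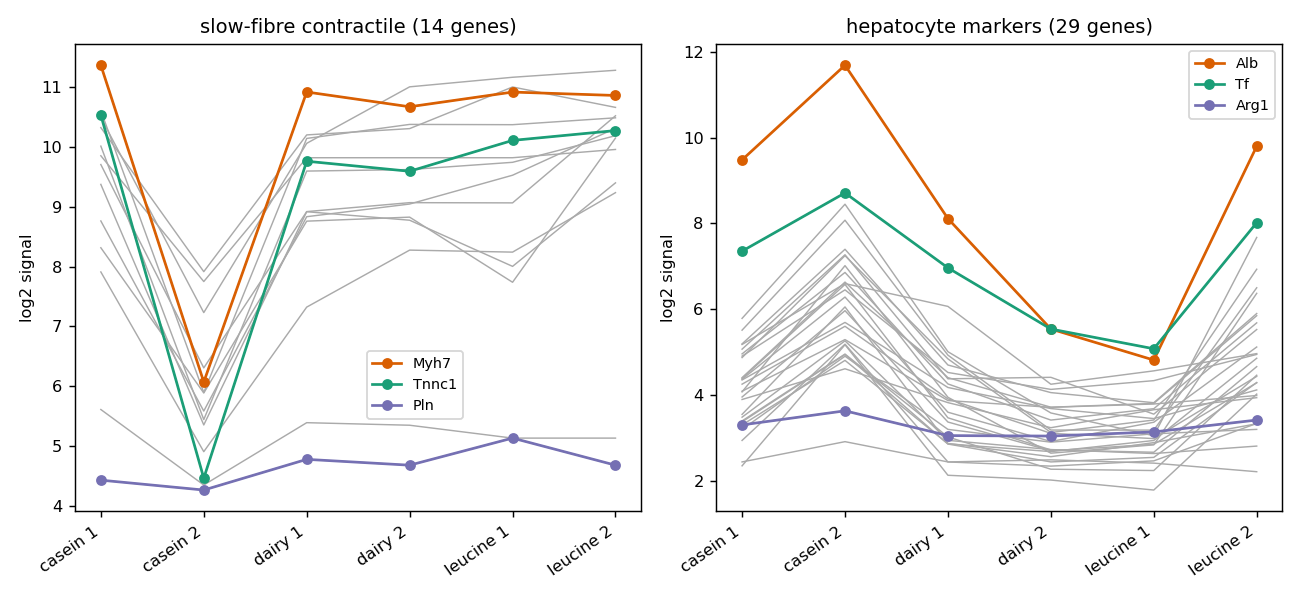
Slow-fibre genes (left) and hepatocyte genes (right) on the 6 arrays, with log2 signal on the y axis; grey lines are single genes and coloured lines are named ones. Slow-fibre lines drop on casein array 2 only, least of all for Pln, and most hepatocyte lines peak on casein array 2, are low on dairy array 2 and leucine array 1, and are raised again on leucine array 2.

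Insulin signalling and glucose uptake had 10 of 18 genes above 0 and a median of 0.08, which was −0.02 after quantile normalization and 0.14 against casein array 1. Slc2a4, the insulin-responsive glucose transporter GLUT4, read 8.41 and 8.08 with casein and 8.56 on both dairy arrays (0.32 ± 0.14). Grb14, an adaptor that inhibits the insulin receptor, read 7.50 and 7.00 against 7.77 and 7.74. Irs1, the main receptor substrate, stood 0.42 ± 0.39 higher and only 0.15 higher against casein array 1. Of the IGF-binding proteins, Igfbp3 was lower, at 4.69 and 4.77 against 4.42 and 4.47 (−0.29 ± 0.06), and Igfbp5 higher, at 8.58 and 8.64 against 9.73 and 9.09 (0.81 ± 0.38).

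Genes of mTORC1 and amino acid sensing did not stand out from genes of like brightness in the deposited values. Of 31 measured members 24 were above 0, and 7 had separate arrays on the higher side (22.6%, against 18.6%). The median was 0.10, equal to that of the bright genes, and was −0.01 after quantile normalization. On that scale 3 lay apart higher (9.68%, against 9.51% of bright genes) and 7 lower (22.6%, against 15.0%). The median was 0.06 against casein array 1, the same as for bright genes. Castor2, of the arginine-sensor family that restrains mTORC1, read 6.14 and 6.73 with casein and 7.10 and 7.13 with dairy (0.68 ± 0.21). Rptor, the subunit that recruits substrates, read 5.33 and 5.26 against 5.48 and 5.47. Nprl2, of the GATOR1 complex that switches the pathway off, read 4.90 and 4.63 against 5.32 and 5.07. The kinase itself, Mtor, touched between diets, with 7.18 and 6.94 against 7.36 and 7.18.

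Slc38a9, the lysosomal transporter that signals arginine to mTORC1, read 4.38 and 4.30 with casein, 4.62 and 4.64 with dairy and 5.13 and 5.19 with leucine, a dairy difference of 0.29 ± 0.06. In amino acid transport as a whole 8 of 18 genes were above 0 and the median was −0.07, but against casein array 1 14 of 18 were above 0 and the median was 0.06. Slc7a5, the leucine-carrying light chain of LAT1, read 3.22 and 4.77 with casein and 3.01 and 2.81 with dairy. Most of its difference of −1.09 ± 0.53 came from casein array 2, and it was −0.31 without it.

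Branched-chain amino acid breakdown had 13 of 20 genes above 0, a median of 0.06, and −0.05 after quantile normalization. For casein array 1 alone the median was −0.06, with 9 genes above 0 and both dairy arrays below that array in 9 (45.0%, against 19.3% of bright genes). The first enzyme of the pathway was lower with dairy. Bcat2, the mitochondrial transaminase that starts leucine breakdown in muscle, read 7.87 and 7.03 with casein, 6.93 and 6.70 with dairy and 6.90 and 7.19 with leucine. Its difference was −0.64 ± 0.32, or −1.06 against casein array 1, so here casein array 1 was the high one. Bckdha, a subunit of the dehydrogenase that commits the carbon to breakdown, read 8.05 and 7.69 against 7.72 and 7.94, and its inhibitory kinase Bckdk read 9.81 and 10.26 against 9.75 and 10.37. Auh, a hydratase late in the leucine pathway, read 7.10 and 7.22 against 7.32 and 7.50.

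Amino acid scarcity acts through ATF4, whose targets make amino acids and their transporters. Of 27 such genes 20 were below 0 and 6 had separate arrays on the lower side (22.2%, against 11.7% of all genes), with a median of −0.05 that was 0.0015 against casein array 1. After quantile normalization 5 lay apart on the higher side (18.5%, against 19.7% of all genes) and 5 on the lower (18.5%, against 13.1%). Of the 6, 3, Chac1, Cth and Mthfd2, were still apart on the lower side. Chac1, which degrades glutathione, read 4.97 and 5.37 with casein and 4.66 and 4.70 with dairy. Cth, of cysteine synthesis, read 3.64 and 4.55 against 3.14 and 2.94, and Asns, asparagine synthetase, overlapped at 2.97 and 3.73 against 2.97 and 2.87. These are dim signals. Ribosomal protein genes had 52 of 67 members above 0 with a median of 0.13, which was 0.03 after quantile normalization and 0.05 against casein array 1, and Rpl30 read 9.57 and 9.74 against 9.95 and 10.25.

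In protein breakdown, 22 of 36 atrophy and autophagy genes were above 0, with 8 apart on the higher side (22.2%, against 18.6% of bright genes) and 2 on the lower (5.56%, against 4.81%). Their median was 0.05, or −0.03 after quantile normalization and 0.17 against casein array 1. Of the 8, 1, Atg12, was still apart after quantile normalization (2.78% of the list, against 9.51% of bright genes). On that scale 6 members lay apart on the lower side (16.7%, against 15.0%). Atg12, a ubiquitin-like protein of autophagosome formation, read 6.18 and 6.21 with casein, 6.51 and 6.67 with dairy and 6.51 on both leucine arrays. The muscle ubiquitin ligases overlapped. Fbxo32 read 8.97 and 9.69 with casein and 9.15 and 9.35 with dairy, and Trim63 read 8.60 and 9.66 against 9.13 and 8.98. Mstn, myostatin, the secreted brake on muscle growth, read 7.32 and 8.08 against 7.38 and 6.77. Proteasome genes had a median of 0.03, or −0.08 on the quantile scale and 0.02 against casein array 1.

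Myogenic and satellite cell genes had 9 of 16 members above 0 and a median of 0.06, or 0.30 against casein array 1, where 10 (62.5%, against 38.5% of bright genes) lay above it on both dairy arrays. Among them Actc1, the cardiac alpha-actin of developing muscle, read 7.00 and 6.35 with casein, 7.52 and 8.31 with dairy and 9.19 and 9.59 with leucine. The 7 genes below 0 included Vcam1 and Sdc4, at −0.70 and −0.57 after quantile normalization. Against casein array 1 on that scale these 2 were above 0, at 0.79 and 0.48. In the circadian clock 7 of 15 genes were above 0 and 8 below. The median was −0.003, or −0.09 after quantile normalization and 0.05 against casein array 1. On the higher side 3 genes had separate arrays (20.0%, near the 18.6% of bright genes), the repressors Nr1d1 and Nr1d2, and Per3. On the lower side 1 did (6.67%, against 4.81%). Nr1d1 read 7.46 and 6.81 with casein, 8.14 and 7.88 with dairy and 5.86 and 6.11 with leucine, and Nr1d2 read 7.97 and 7.42, 8.24 on both dairy arrays, and 8.02 and 7.96. Cry1, the clock gene apart on the lower side, read 5.39 and 5.30 with casein and 5.21 and 5.11 with dairy. The hour at which tissue was taken was not given in the sources used here. Calcium and vitamin D hormone genes were dim, with a median level of 3.05, and 7 of 17 were above 0. Their median difference was −0.03, which was 0.02 after quantile normalization and −0.0085 against casein array 1, and the vitamin D receptor Vdr read 2.77 and 2.80 against 2.71 and 3.04.

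In a further group of genes dairy differed from casein array 1 while casein array 2 lay on the far side or beyond. Fkbp5, a chaperone induced by glucocorticoids, read 5.26 and 7.69 with casein and 7.05 and 7.35 with dairy, 1.94 above casein array 1 and −0.49 from casein array 2. The glucocorticoid and metallothionein list had a median of −0.15 against both arrays and 0.24 against casein array 1, where both dairy arrays lay above it in 9 of 16 genes (56.2%, against 38.5%). Mt1, a metallothionein, read 6.68 and 11.17 with casein and 7.53 and 7.35 with dairy. Zfp36, an RNA-binding protein that ends cytokine messages, read 5.47 and 9.90 against 7.14 and 6.78. The casein arrays bracketed the dairy arrays in Mt1 and Zfp36.

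Inflammatory genes behaved in the same way. Of 24 genes 18 were below 0 with a median of −0.50, yet the median was 0.15 against casein array 1, where 14 genes (58.3%, against 28.4% of all genes) lay above it on both dairy arrays. Il6 read 2.0 and 6.97 with casein and 2.12 and 2.16 with dairy, which places it at 0.14 above casein array 1. Il1b was lower against each, reading 3.60 and 4.88 against 3.28 and 3.15. Immediate early genes had medians of −0.18 and 0.29 in the same order, and macrophage markers of −0.004 and 0.19. C1qc, a complement chain made by macrophages, read 4.99 and 7.14 against 6.23 and 6.78, and Lyz2, lysozyme of myeloid cells, read 3.69 and 6.69 against 5.11 and 5.06. Other genes chosen by distance from casein array 1 were Ankrd1, Irgm and Mpp3 on the higher side and Mettl21c, Masp1, Mtfp1 and Tm2d2 on the lower. Their differences from it were 2.37, 1.54 and 1.58, and −1.53, −0.93, −0.93 and −0.86.

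**Figure D5:**
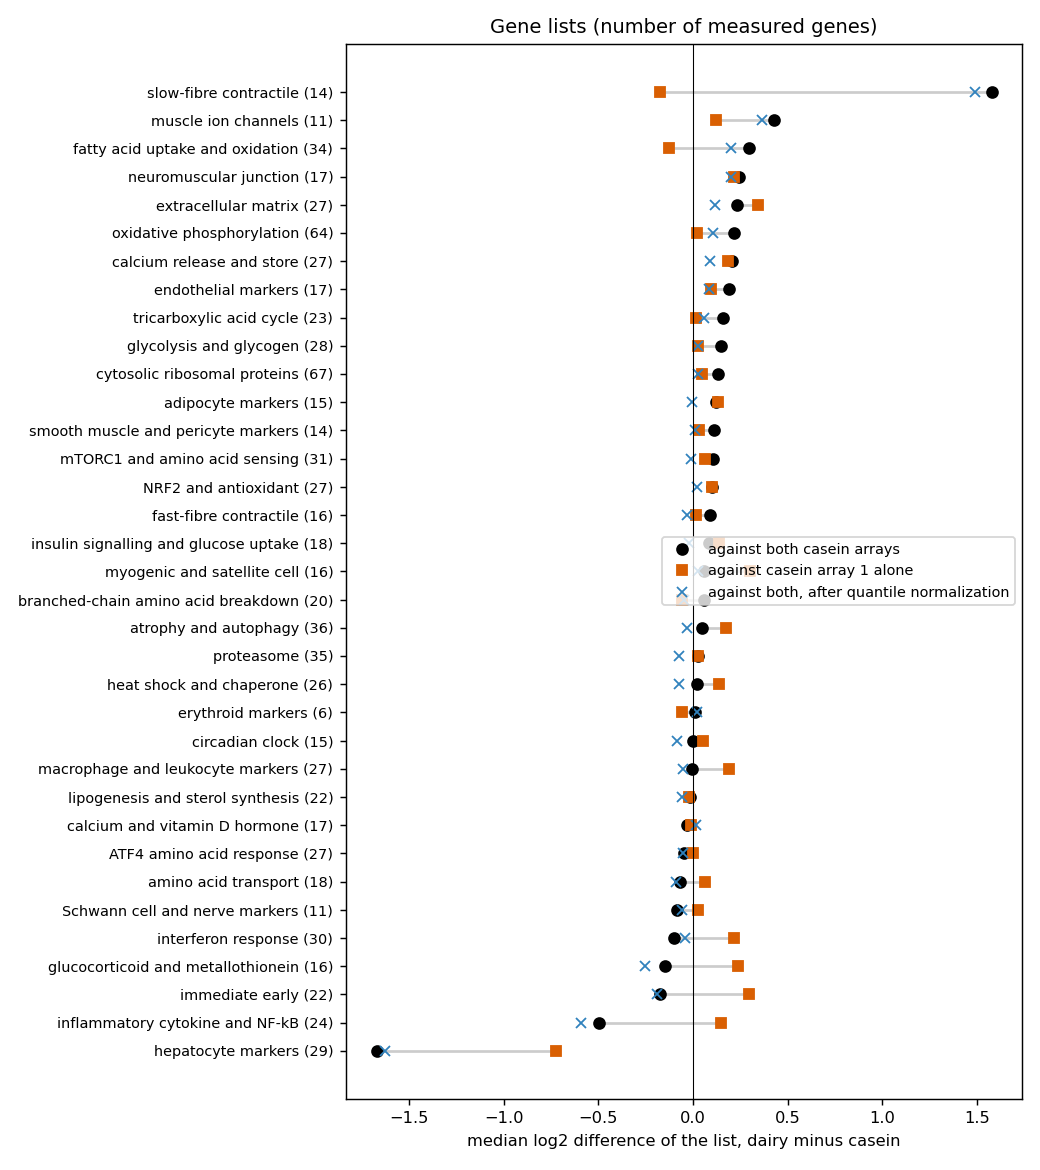
Median log2 difference of each of 35 gene lists, dairy minus casein, against both casein arrays (circles), against casein array 1 alone (squares) and against both after quantile normalization (crosses), with the number of measured genes in parentheses. Junction, matrix and calcium release lists keep all 3 marks to the right of 0. Other lists do so too, among them ion channels, endothelial markers and oxidative phosphorylation. Slow-fibre and fatty acid lists switch sides with the control array, and hepatocyte genes lie to the left of 0 throughout.

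The lowest values of the comparison belonged to transcripts of liver. The protocol texts mention liver in the storage and extraction steps, although every array is labelled as muscle. All 29 hepatocyte genes were lower with dairy, with a median of −1.67, and in 25 (86.2%, against 11.7% of all genes) the arrays did not overlap. Against casein array 1 the median was −0.73. The same number of 25 genes lay below it on both dairy arrays (86.2%, against 26.7% of all genes) and 0 above (against 28.4%). Alb, serum albumin, read 9.48 and 11.69 with casein and 8.11 and 5.54 with dairy, and with leucine it read 4.81 and 9.80. Tat, a liver tyrosine transaminase, read 3.48 and 5.26 with casein and 2.94 and 2.73 with dairy. Of the bright genes with the widest gap on the lower side, 6 of 8 (Alb, Mug1l1, Hpx, Apoh, Plg and Pzp) encode plasma proteins made by liver.

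Within the casein and leucine diets these transcripts varied about as much as between diets. The median level of the 29 genes was 4.25 and 6.05 on the casein arrays, 3.87 and 3.11 on the dairy arrays and 3.14 and 4.66 on the leucine arrays. As a sum of linear signals, in log2, the list spanned 10.5 to 12.6 with casein, 9.73 to 8.46 with dairy and 8.35 to 11.1 with leucine. The part of these transcripts in other differences was not tested.

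Endothelial markers, Emcn among them, had 11 of 17 genes above 0, 5 apart on the higher side (29.4%, against 18.6%) and a median of 0.19, or 0.10 against casein array 1. Without Emcn, which was chosen for its p, 4 of 16 (25.0%) lay apart. Tek, the angiopoietin receptor, read 6.24 and 4.96 with casein and 6.77 and 6.57 with dairy, and Cdh5, the endothelial cadherin, read 5.87 and 5.22 against 6.05 and 6.20. The other 6 of the 17 were below 0. Of these, Esam, Aqp1, Robo4 and Flt1 stood at −0.41, −0.31, −0.23 and −0.19 after quantile normalization. Smooth muscle and pericyte markers had 10 of 14 genes above 0 and 1 apart on each side (7.14%, against 18.6% of bright genes on the higher and 4.81% on the lower). Adipocyte markers had 8 of 15 above 0, and erythroid markers 4 of 6. Medians against casein array 1 were 0.03 for smooth muscle, 0.13 for adipocyte and −0.06 for erythroid markers. Fabp4, the lipid-binding protein of fat cells and capillaries, read 6.97 and 6.89 with casein and 7.72 and 7.12 with dairy, while Adipoq, adiponectin, overlapped with 5.66 and 7.42 against 6.72 and 4.48. Quantile normalization left the endothelial median at 0.08, the smooth muscle median at 0.01 and the adipocyte median at −0.01.

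Heat shock and chaperone genes had 15 of 26 members above 0 and a median of 0.02, or 0.14 against casein array 1. Antioxidant targets of NRF2 had 22 of 27 and a median of 0.10, which was 0.02 after quantile normalization and again 0.10 against casein array 1. The small heat shock protein Hspb6 read 10.26 and 9.43 with casein and 10.43 and 10.65 with dairy. Interferon response genes had 14 of 30 above 0, with a median of −0.10 that was 0.22 against casein array 1, where both dairy arrays lay above it in 12 genes (40.0%, against 28.4% of all genes) and below it in 1 (3.33%, against 26.7%). Ly6e, an interferon-induced surface protein, read 7.05 on both casein arrays, 7.32 and 7.23 with dairy and 6.38 and 6.15 with leucine. The 16 interferon genes below 0 included Tap1 and Tap2, at −0.77 and −0.26 after quantile normalization. Lipogenesis and sterol synthesis had 10 of 22 above 0, 3 apart on the lower side (13.6%, against 4.81% of bright genes) and a median of −0.015, or −0.02 against casein array 1, with Fasn, fatty acid synthase, overlapping at 4.54 and 5.40 against 4.73 and 4.30.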

How the data were processed

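Muscle RNA was measured on Affymetrix Rat Gene 1.0 ST arrays, 2 per diet. The deposited log2 signals came from Affymetrix Expression Console; that name is from the submitters' processing notes, and its version, background correction and normalization are not given in the sources used here. Scanner files were not analysed here, and the precision is limited by the number of arrays.

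The deposited table held 29214 transcript clusters, of which 15310 had 1 gene in the platform annotation, and for the 527 genes with several clusters the one with the highest mean was kept, which left 14506 genes and no filter on dim ones. All 6 arrays were fitted with limma 3.58.1 (R 4.3.3) with diet as the only term, leaving 3 residual degrees of freedom. Benjamini-Hochberg adjustment ran over all genes, with a threshold of 0.05. Errors are standard errors of that fit. The procedure was tested on simulated data. Shared replicate numbers were not taken to pair arrays: their deviations correlated at 0.0865 between the diets.

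The 35 gene lists (847 of 939 symbols measured, 4 through a synonym) and the comparison were chosen with earlier results of these data known. Named genes are, per direction, the 10 with the smallest p and the 8 with the widest gap among bright genes with separate arrays. Also named are, per direction, the 8 bright genes farthest from casein array 1, with members of the lists by p or role, and 26 fixed genes. Alternatives were the 4 arrays alone, quantile normalization, bright genes only, averaged clusters, a variance trend, a replicate block and leaving out each array. No column was left unassigned (0).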

Additional observations from a re-analysis of the deposited data

How the results depend on the processing

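The count of genes past limma's threshold was 0 with both casein arrays and with casein array 1 alone under each alternative that kept every array of the fit, with lowest adjusted p between 0.355 and 0.984. It ran from 0 to 1 when single arrays were left out: without casein array 1, Il6, high on casein array 2 only, had an adjusted p of 0.0379. With the replicate number as a block the count was 0, with 848 genes at an unadjusted p under 0.05 and a lowest adjusted p of 0.783; the numbers were not taken to pair arrays, and the block changed no other call. Leaving out single arrays gave 58 (without casein array 2) to 446 (without casein array 1) genes over 2-fold, 37 to 155 higher and 21 to 291 lower. Fewer arrays also meant more genes without overlap, 6999 to 9194, with 3698 to 4687 higher and 3301 to 4507 lower. With the 7253 bright genes alone there were 90 genes over 2-fold, 56 of them lower, and 1699 without overlap, 349 of them lower. Quantile normalization gave 2855 genes without overlap on the higher side. It turned the medians of insulin signalling (−0.019), mTORC1 (−0.012), the proteasome (−0.077) and vitamin D genes (0.017, or 0.067 with bright genes alone), and the differences of Col1a1 (−0.053), Myh4 (−0.098) and Bckdk (−0.081). The cause was not tested. Of 35 list medians, 9 changed sign under it and 13 without casein array 2, including Schwann cell (−0.13 to 0.028 over single arrays left out) and erythroid markers (−0.057 to 0.043). Over the same arrays left out, 26 of 118 named genes changed sign, 25 of them by at least 0.005 beyond 0; the other was Ryr1 (−0.0012 to 0.52). Differences ran from −0.57 to 4.73 for Myh7, −0.86 to 5.22 for Tnnc1, −0.016 to 3.29 for Myh2, −0.11 to 0.72 for Myh1, −0.16 to 0.22 for Myh4, −0.098 to 0.69 for Cpt1b and −0.34 to 0.77 for Ucp3. They ran from −0.49 to 1.94 for Fkbp5, −3.73 to 0.75 for Mt1, −2.95 to 1.49 for Zfp36, −4.82 to 0.14 for Il6, −0.63 to 1.52 for C1qc, −1.61 to 1.40 for Lyz2, −1.37 to 1.54 for Irgm, −1.30 to 1.58 for Mpp3, −1.53 to 0.58 for Mettl21c and −0.86 to 0.29 for Tm2d2. The others were Col1a1 (−0.24 to 0.36), Ppargc1a (−0.076 to 0.32), Bckdha (−0.22 to 0.14), Bckdk (−0.28 to 0.34), Fbxo32 (−0.43 to 0.28), Trim63 (−0.61 to 0.45), Adipoq (−2.07 to 0.18) and Vdr (−0.074 to 0.25). Each direction given for Emcn, Ache, Slc6a8, Cilp, Dkk2, Kcnma1, Ostn and Thbs1 was kept under every alternative run. In each of them the dairy and casein arrays did not overlap, so leaving out an array could not have turned the direction. Nor could a fit that changes only the estimate of spread. With 2 arrays per diet, small differences were not detectable, and background readings, which would tell dim genes from undetected ones, were not analysed here.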
